A study of Danio rerio with 33 samples.

Results

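The bloodthirsty-related (btr) genes are a zebrafish family of tripartite motif (TRIM) genes. The family was chosen with earlier results of these data known, while its rows were taken by symbol alone. Every row of the deposited gene count table whose symbol is btr followed by a number was taken, without regard to its values, which gave 20 genes of the 30490 in the table: btr01, btr02, btr04, btr06, btr07, btr09, btr12, btr16, btr18, btr20, btr21, btr22, btr23, btr24, btr25, btr26, btr29, btr30, btr31 and btr32. TRIM proteins carry a RING finger, B-box and coiled coil, many act as E3 ubiquitin ligases, and several TRIM families take part in antiviral defence. The btr family is named after bloodthirsty, a zebrafish TRIM gene needed for red blood cell formation, and it has expanded in fish, as has another fish TRIM family, the finTRIM genes (ftr). The roles of most single btr genes are not established, so the members are ordered here by where and how they varied.

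The study examined Kctd15, a BTB-domain protein known to restrain neural crest formation and to bind the transcription factor AP2, in zebrafish embryos and gonads. Polyadenylated RNA was sequenced from 33 libraries in 11 groups, with 3 biological replicates in each. Of the 7 embryo groups, all at 10 somites, 6 were of wild-type genotype: with no injection named, with 5 pg AP2, with 5 pg AP2-P59, with 100 pg kctd15, with AP2 and kctd15, or with AP2-P59 and kctd15. The seventh group was kctd15 mutant embryos, and the 4 gonad groups were ovary and testis of adult wild-type and adult kctd15 mutant fish. The labels give neither the mutated kctd15 gene and allele, nor the strain, the number of embryos or fish per library, or whether mutants and wild types were siblings. A difference between mutant and wild type can therefore not be told apart from a difference between fish stocks.

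Libraries held 15152199 to 24131756 estimated counts. Levels are given in CPM, counts scaled to library size, on a trimmed-mean (TMM) scale common to all 33 libraries. No transcript lengths were used, so levels are compared between libraries for 1 gene and not between genes. Oocyte markers summed to 15190 CPM or more in every ovary library and to at most 872.7 CPM in every testis library and in the wild-type and mutant embryo libraries. Some tissue lists differed by genotype. In mutant and wild-type ovary, male germ cell markers summed to 274.6 to 308.4 and 158.4 to 229.3 CPM, and gonad support cell markers to 251.4 to 281.2 and 290.7 to 395.6 CPM. Both lists overlapped in testis. In embryos, 10-somite markers summed to 10200 to 13580 CPM in mutants and 8252 to 9473 CPM in wild types. The part of tissue make-up or stage in the btr levels was not tested. The library of mutant ovary replicate 3 stood apart: 388 genes exceeded 8 times their level in both other replicates, against 0 to 26 genes in the other wild-type and mutant libraries. Its leading examples were the yolk gene vtg1 at 76630 CPM and the liver gene fabp10a at 1171 CPM. Since the labels do not say which kctd15 gene is mutated, its RNA gives no sure check of the mutant labels. In mutant and wild-type embryos kctd15a was at 198 to 218 and 42.7 to 61.0 CPM, and kctd15b at 5.48 to 7.89 and 4.01 to 4.63 CPM. In mutant ovary kctd15b was at 0.27 to 0.96 CPM beside 1.82 to 4.43 CPM in wild types.

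In wild-type fish many members differed between tissues, as most genes of the table did. Compared with the embryo, the ovary had 11 members higher and 5 lower of 20 tested, and the testis had 10 higher and 6 lower. btr09, btr16, btr24 and btr29 were too low for the embryo fit and passed the filter here only through the gonads. Their direction was thus largely set by the filter. All of them count as higher in ovary, and all but btr24 as higher in testis. Between the gonads, 3 members were higher in testis and 5 were lower there. Differences of this kind were the rule in these tissues: 66.4% of all genes tested passed between ovary and embryo (30.9% higher in ovary, 35.5% lower), 64.5% between testis and embryo (33.7% higher in testis, 30.9% lower) and 70.5% between testis and ovary (41.6% higher in testis, 28.9% lower). In the same order, the median size of the log2 difference, without its sign, was 2.30, 2.06 and 0.89 for members and 1.79, 1.47 and 1.88 for all genes. Between the gonads the median size was thus smaller for members than for all genes. The all-gene median was itself well off 0 in that comparison (0.72, below), and the part of this shift in the sizes was not tested. Each library is a bulk sample, in which fewer cells of a type and less RNA per cell cannot be told apart. Tests across genes were edgeR quasi-likelihood tests, with p-values adjusted by Benjamini-Hochberg over the whole table, and higher or lower in counts of genes means an adjusted p under 0.05. The median of all genes was itself at a log2 difference of -0.20, 0.13 and 0.72 in these 3 comparisons, and all 16, 16 and 8 members called kept their sign after that median was subtracted.

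The ovary group was led by btr16, btr09 and btr04. The levels of btr16 were 67.3, 41.3 and 64.3 CPM in the wild-type ovary, 2.34, 2.1 and 2.01 CPM in the testis and 0.19, 0.33 and 0.16 CPM in the embryo, with no overlap between any of the tissues. It was higher in ovary than embryo by 7.88 ± 0.41 on the log2 scale (SE; edgeR adjusted p = 1.01e-10) and lower in testis than ovary by a log2 difference of -4.68 ± 0.32 (adjusted p = 1.58e-07). A similar order held for btr09, at a mean of 20.3 ± 3.4 CPM in ovary (SD, n = 3), 9.96 ± 2.76 in testis and 0.25 ± 0.11 in embryo. btr04 was at 118, 94.3 and 81.0 CPM in ovary, 20.8, 29.7 and 33.7 CPM in testis and 18.8, 11.6 and 16.6 CPM in embryo. Its ovary libraries stood above all others, while testis and embryo were separated by less, at a log2 difference of 0.84 ± 0.28 (edgeR adjusted p = 0.0148).

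btr12 and btr18 were also abundant in ovary. btr12 had 40.2 ± 9.3 CPM in ovary, 18.8 ± 7.1 in embryo and 3.63 ± 1.09 in testis. btr18 had 32.7 ± 17.3 CPM in ovary, 24.1 ± 4.2 in testis and 11.2 ± 2.7 in embryo. The wide ovary spread of btr18 came from replicate 2, at 13.0 CPM beside 45.4 and 39.6 CPM, and ovary and testis did not separate.

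The embryo group held btr01, btr02, btr06 and btr30. btr01 was at 13.4, 9.72 and 11.2 CPM in embryos and at 0.19 to 1.93 CPM in both wild-type gonads. btr02 was at 5.12, 5.38 and 4.87 CPM in embryos and at 0.24 to 0.88 CPM in the gonads, and btr30 was at 5.08 to 9.70 CPM in embryos and at most 1.39 CPM in the gonads. All 3 were lower in ovary and in testis than in embryos, and for each the embryo libraries lay above every gonad library. btr06 differed from them in testis, at 5.88, 7.60 and 7.50 CPM, beside 9.12, 12.3 and 8.12 CPM in embryos and 0.48 to 0.72 CPM in ovary, and its testis libraries lay below the embryo libraries without passing the test (log2 difference -0.50 ± 0.39, edgeR adjusted p = 0.275).

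Testis was the highest tissue for btr29 and btr20. btr29 was at 4, 5.34 and 6.5 CPM in testis, at 0.77 to 0.86 CPM in ovary, and at 2, 0 and 0 counts in the 3 wild-type embryo libraries. btr20 was at 12.2, 7.54 and 6.08 CPM in testis, 2.24, 2.47 and 2.79 CPM in ovary and 0.99, 0.42 and 1.03 CPM in embryos, and no 2 tissues overlapped. Of the remaining members, btr22, btr26 and btr31 were higher in both gonads than in embryos. btr24 and btr25 did not separate between the testis and either other tissue, and of this pair btr24 was higher in ovary than embryo (adjusted p = 0.0495). btr23 and btr21 were lower in testis than in embryos. btr07 was lower in ovary than in embryos (log2 difference -1.76 ± 0.71, adjusted p = 0.0401), with embryo libraries that ran from 0.21 to 2.57 CPM. btr32 was called higher in testis than embryo, but its testis libraries held 122, 148 and 1 counts.

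**Figure D1:**
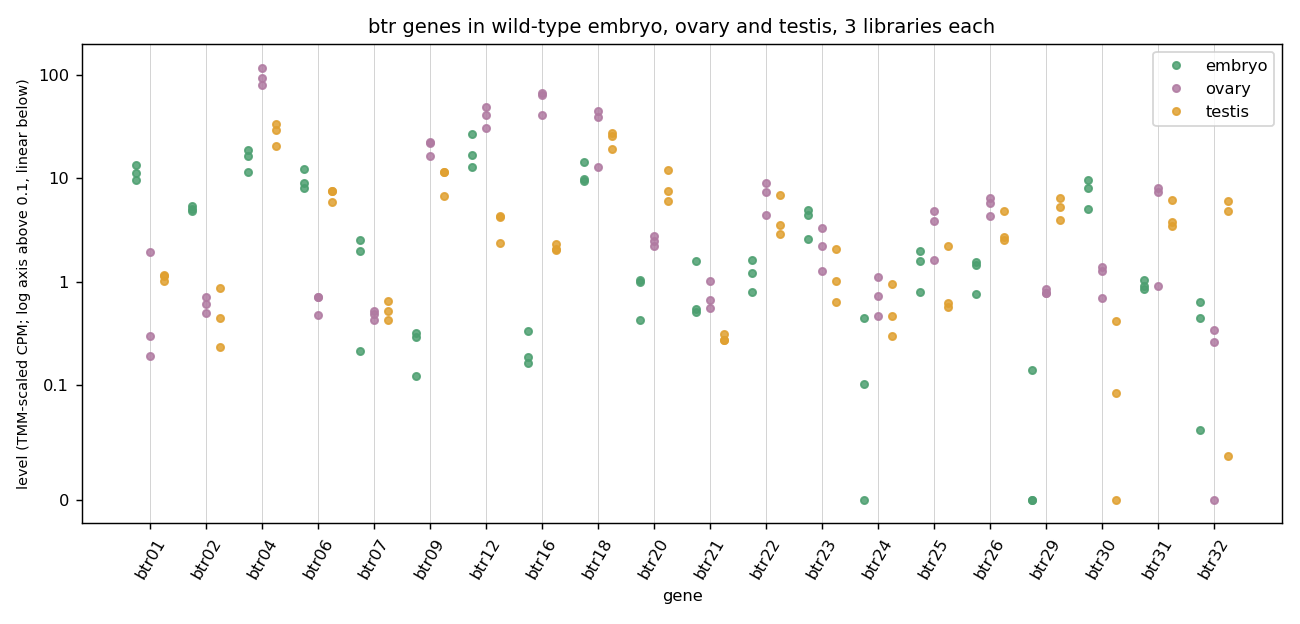
Level of each btr gene in the 3 wild-type embryo, 3 ovary and 3 testis libraries, in TMM-scaled CPM on an axis that is logarithmic above 0.1 and linear below; each point is a library. btr16 spans from 0.16 CPM in an embryo library to 67.3 CPM in an ovary library, while btr01, btr02 and btr30 are highest in embryos.

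In kctd15 mutants btr22 was lower in ovary and in testis, and btr20 was lower in testis and in embryos. In the ovary, btr22 was at 4.41, 8.99 and 7.45 CPM in wild types and at 0.18, 0.37 and 0.52 CPM in mutants. In the testis the wild types were at 3.52, 7 and 2.93 CPM and the mutants at 0.45, 0.11 and 0.28 CPM. In embryos it was at 0.81, 1.62 and 1.21 CPM in wild types and 0.35, 0 and 0.38 CPM in mutants. In each of the 3 tissues every mutant library lay below every wild-type library. The log2 change was -4.23 ± 0.64 in ovary (edgeR adjusted p = 0.0155), -3.96 ± 0.62 in testis (adjusted p = 0.0481) and -2.33 ± 0.67 in embryos (adjusted p = 0.0551, past the threshold at 0.0267 with replicate number as a block, since equally numbered libraries of these 2 embryo groups deviated together).

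For btr20, the wild-type testis libraries, at 12.2, 7.54 and 6.08 CPM, stood against 0.62, 1.36 and 1.34 CPM in mutant testis. Embryo libraries held few reads of it: 13.9, 6.94 and 17.0 estimated counts in wild types and 1.29, 2.18 and 3.51 in mutants. In ovary it was at 2.24, 2.47 and 2.79 CPM in wild types and 1.23, 1.35 and 1.43 CPM in mutants. Again no mutant library reached a wild-type library in any tissue. Its log2 change was -2.91 ± 0.43 in testis (edgeR adjusted p = 0.0357) and -2.38 ± 0.65 in embryos (adjusted p = 0.0435), while the ovary difference did not pass.

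btr26 was lower in mutant ovary. It was at 4.38, 6.47 and 5.80 CPM in wild-type ovary and at 0.59, 0.58 and 0.58 CPM in mutant ovary, a log2 change of -3.23 ± 0.51 (edgeR adjusted p = 0.0174). In testis its wild-type libraries at 2.56, 4.89 and 2.75 CPM also lay above the mutant ones at 0.74, 2.14 and 1.93 CPM, without passing the test (adjusted p = 0.682). In embryos the groups overlapped, with mutants at 0.92, 2.07 and 2.30 CPM beside 1.45, 0.76 and 1.54 CPM.

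btr07 differed in opposite directions in embryos and gonads. In testis it was at 0.43, 0.52 and 0.65 CPM in wild types and at 9.31, 3.96 and 6.12 CPM in mutants, and rose by 3.60 ± 0.54 on the log2 scale (edgeR adjusted p = 0.0404). In ovary, wild types at 0.49, 0.52 and 0.43 CPM stood below mutants at 0.96, 3.78 and 2.76 CPM (edgeR adjusted p = 0.0831; DESeq2 adjusted p = 0.0040). In embryos no count was assigned to btr07 in any of the 3 mutant libraries, beside 2.99, 42.1 and 33 estimated counts in wild types. Against a floor of 3 counts over the mutant group, the wild-type embryos were at least 25.6-fold higher, a bound that covers counting error only. The edgeR test gave adjusted p = 0.0906 and DESeq2 adjusted p = 0.0055. The difference between the mutant effect in embryos and in gonads passed its own test (adjusted p = 0.0030).

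**Figure D2:**
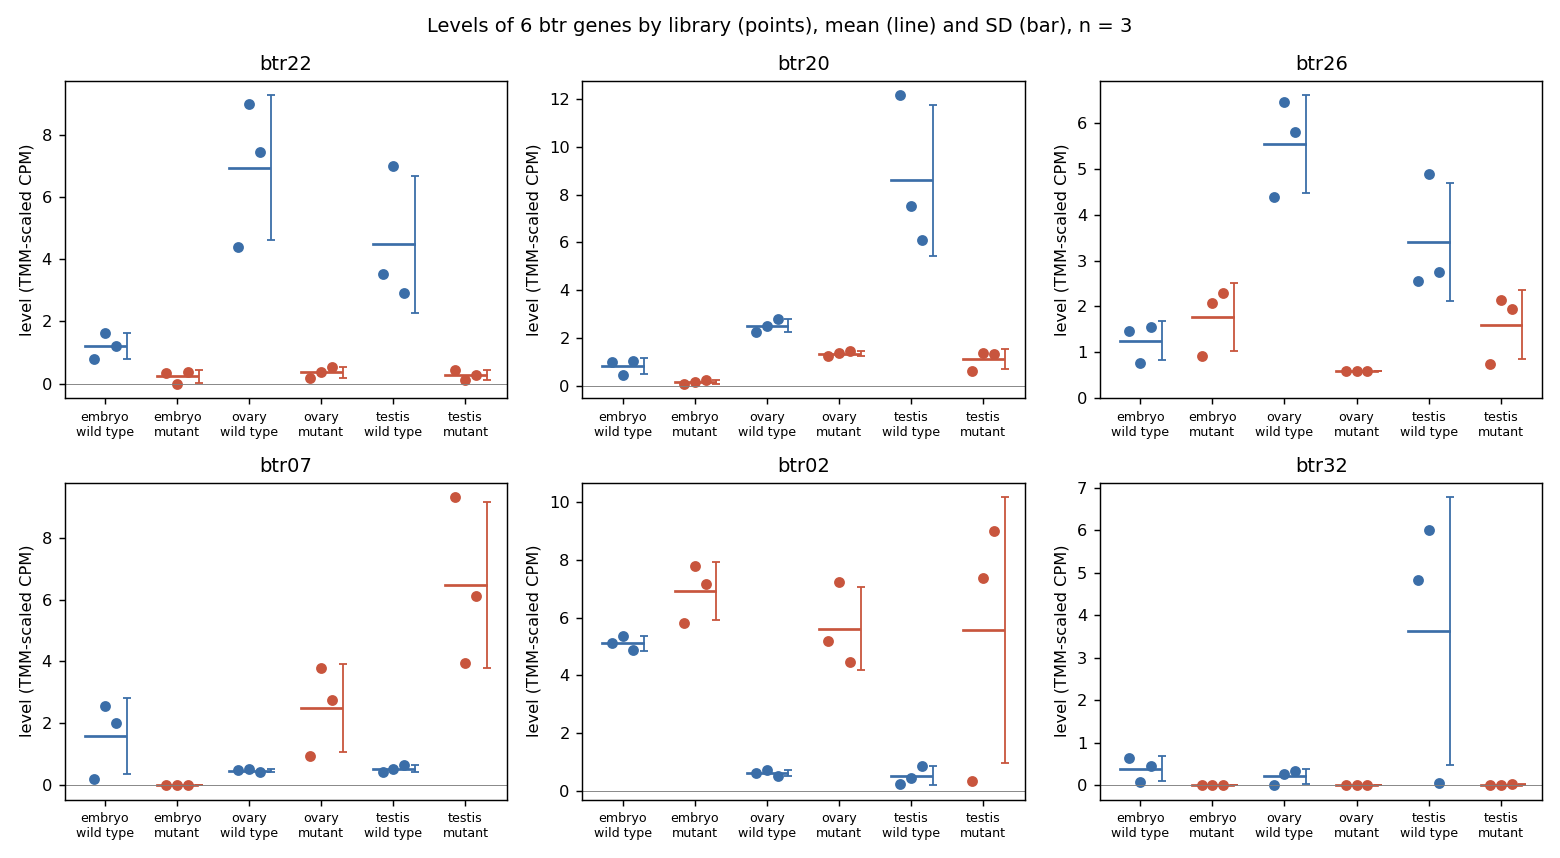
Level of 6 btr genes (TMM-scaled CPM) in the 3 libraries of wild-type (blue) and kctd15 mutant (red) embryo, ovary and testis; points are libraries, lines group means and bars SD. Mutant libraries of btr22 and btr20 lie below the wild-type libraries in each tissue, and btr07 is at 0 in mutant embryos and highest in mutant testis.

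Counted over the family, mutant embryos had 0 members higher and 1 lower (btr20) of 16 tested, where 4.09% of all genes passed, 1.36% higher and 2.73% lower. That fit ignored the pairing of same-numbered embryo libraries. With replicate number as a block, 3 members were lower: btr18, btr20 and btr22 (edgeR adjusted p = 0.0186, 0.0260 and 0.0267). More of all genes passed with the block as well, 1345 higher and 1586 lower of 22305. Mutant ovary had 0 members higher and 2 lower (btr22 and btr26) of 18 tested, where 0.553% of all genes passed, 0.348% higher and 0.205% lower. Mutant testis had 1 higher (btr07) and 2 lower (btr20 and btr22) of 18, where 0.0696% of all genes passed, 0.0271% higher and 0.0425% lower. The members not tested for low counts were btr09, btr16, btr24 and btr29 in embryos and btr21 and btr32 in gonads. In mutant testis 18 genes of the whole table passed, 3 of them btr genes. Of all genes, 20 passed in at least 2 of the 3 mutant comparisons, and btr20 and btr22 were among them.

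These calls rest on few libraries. In testis the adjusted p of btr07 and btr22 rose above the threshold on leaving out any 1 of the 6 libraries (0.0660 to 0.171 and 0.0593 to 0.267), and that of btr20 did so for 5 of 6, the exception being wild-type replicate 3. In embryos the call of btr20 held only without wild-type replicate 2 (range 0.0429 to 0.143). In ovary, btr22 lost its call without wild-type replicate 2 (0.0555), and btr26 without wild-type replicate 2 (0.0622) or mutant replicate 2 (0.0542). Both ovary calls held without mutant ovary replicate 3, the library with high vtg1. With replicate number as a block, btr07, btr20 and btr22 lost their testis calls (edgeR adjusted p = 0.118, 0.107 and 0.138). When each comparison was filtered and fitted on its own 2 groups alone, no ovary or testis member passed with edgeR. In embryos that filter left 13 members, btr20 not among them, and btr18 passed (adjusted p = 0.0244). No log2 change behind one of these calls reversed in sign under any of these settings in which it was tested.

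The log2 changes of the members lay on both sides of 0 and were wider than those of the table as a whole. The median log2 change of the members tested was -0.19 in embryos, 0.09 in ovary and 0.51 in testis, against -0.01, 0.05 and 0.07 over all genes. The median size of the change, without its sign, was 0.51, 1.25 and 1.12 for members against 0.28, 0.41 and 0.29 for all genes. Many members have low counts, and the part of this in the width was not tested. Groups did not overlap for 2 members higher and 5 lower in embryos, where 12.9% and 13.6% of all genes were without overlap in those directions. In ovary it was 4 higher and 5 lower, beside 7.97% and 7.46%, and in testis 4 higher and 3 lower, beside 9.23% and 6.31%. Of the 14 members tested in all 3 comparisons, btr20 and btr22 had a negative and btr01, btr02 and btr06 a positive log2 change in each, 35.7% beside 26.4% of 21512 genes.

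**Figure D3:**
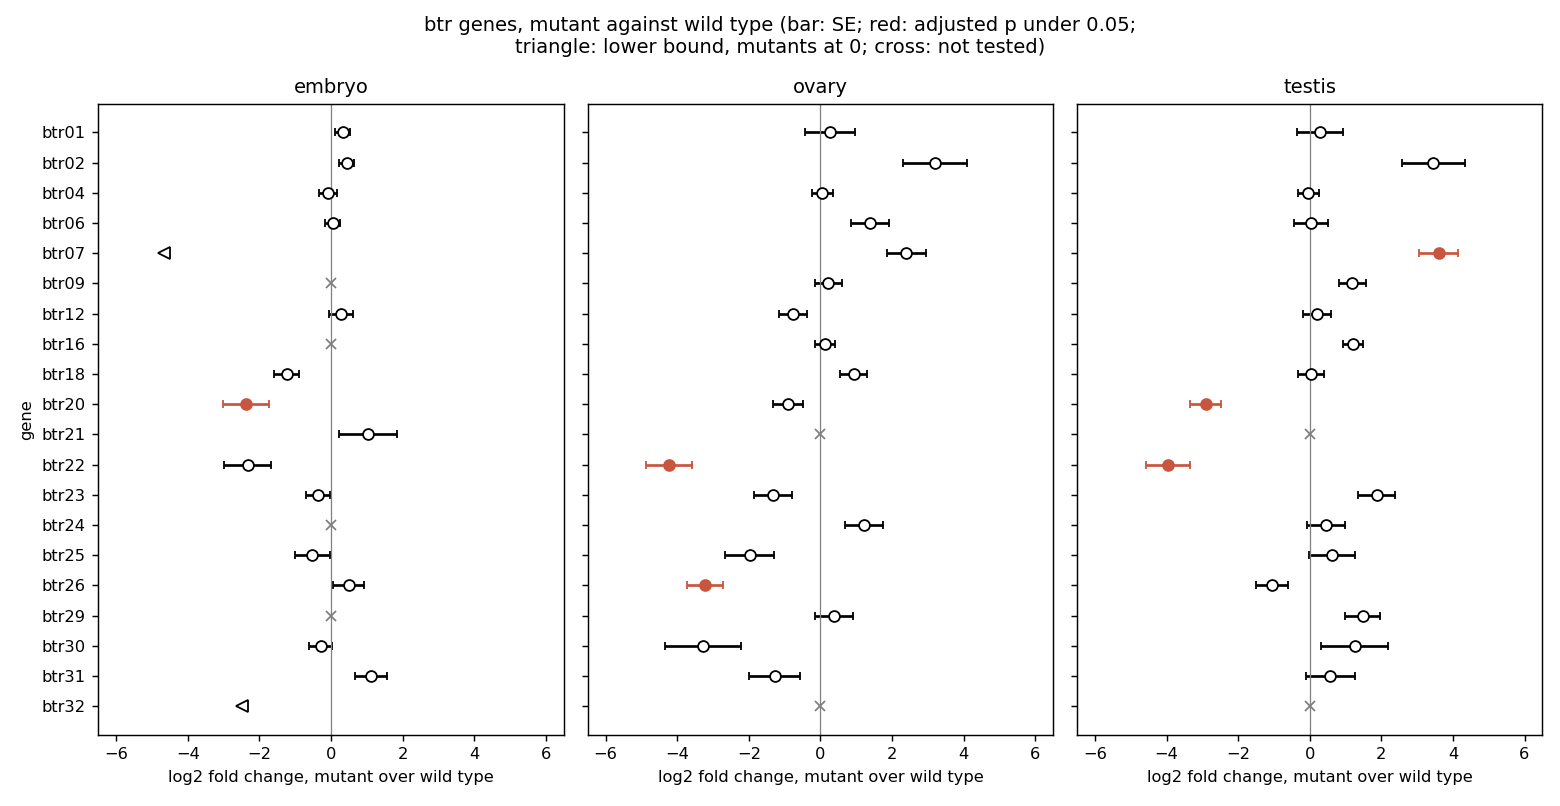
Log2 fold change of mutant over wild type for each btr gene in embryo, ovary and testis, with the SE of the fit as bars; red points passed an adjusted p of 0.05, triangles mark lower bounds where all mutant libraries are at 0, and crosses mark genes not tested. The family spreads to both sides of 0 in each tissue, with btr22 at -4.23 in ovary and -3.96 in testis and btr07 at 3.60 in testis.

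Several members outside the calls are described here because of their values. btr02 was at 0.61, 0.71 and 0.50 CPM in wild-type and 5.18, 7.24 and 4.45 CPM in mutant ovary, with no overlap and a log2 change of 3.21 ± 0.89 (edgeR adjusted p = 0.143; DESeq2 adjusted p = 0.0083). In testis it was at 0.24, 0.44 and 0.88 CPM in wild types and at 0.34, 7.37 and 9.02 CPM in mutants. Mutant testis replicate 1 lay within the wild-type range and the other 2 above it (edgeR adjusted p = 0.275, and 0.0182 without that replicate; DESeq2 adjusted p = 0.0084). btr18, whose embryo levels were 9.42, 14.4 and 9.95 CPM in wild types and 4.96, 3.54 and 5.88 CPM in mutants, was on the other side in ovary, with mutants at 51.7, 61.0 and 72.1 CPM beside 45.4, 13.0 and 39.6 CPM (adjusted p = 0.0574 and 0.273).

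btr32 was nearly undetected in mutants of every tissue. Wild-type testis libraries held 122, 148 and 1 estimated counts of it and mutant testis libraries 0, 0 and 1, a ratio of 312 with a 95% counting interval of 55.6 to 12400. The third wild-type library thus resembled the mutants. The interval pools the libraries of a group and covers counting error only, not the spread between libraries, as do the bounds and interval below. In gonads btr32 was filtered out of the main edgeR fit. Without the filter edgeR tested it and did not call it in mutant testis. The same held on leaving out wild-type testis replicate 3, where it was tested too. DESeq2 called it lower in mutant testis (log2 change -8.20, adjusted p = 0.0050). In embryos there were 17 counts in the 3 wild-type libraries and 0 in the mutants, at least a 5.58-fold difference against the floor, and in ovary 9 and 0, at least 3.03-fold. btr21 had 35 counts in wild-type and 2 in mutant ovary, a ratio of 17.7 (interval 4.55 to 152), while its mutant embryos, at 1.45, 2.04 and 1.78 CPM, stood beside wild-type embryos at 1.58, 0.54 and 0.51 CPM.

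Of the 4 neighbours btr23, btr24, btr25 and btr26, all but btr24 had a negative log2 change in mutant ovary. In ovary, mutant btr23 was at 0.70, 0.71 and 1.3 CPM beside 3.34, 2.24 and 1.28 CPM in wild types, and btr25 at 0.51, 0.71 and 1.35 CPM beside 1.61, 4.89 and 3.87 CPM. btr24 was on the opposite side, at 1.26, 1.95 and 2.1 CPM in mutants and 0.47, 1.12 and 0.74 CPM in wild types. These ovary differences of btr23, btr25 and btr24 did not pass (edgeR adjusted p = 0.276, 0.210 and 0.321). In testis btr23 was also on the other side from its ovary difference, at 4.05, 4.59 and 4.75 CPM in mutants and 0.64, 1.03 and 2.1 CPM in wild types (adjusted p = 0.336). Of the 4, btr26 alone passed in a mutant comparison with edgeR, while DESeq2 also called btr23 in testis (log2 change 1.84, adjusted p = 0.0325).

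With edgeR no member passed a test of whether the mutant effect differed between ovary and testis, where 0.0812% of all genes did. An unadjusted p under 0.05 was found for 6 of 18 members and for 2826 of 25870 genes. The 2 effects on btr23 differed by a log2 value of -3.18 ± 0.74 (edgeR adjusted p = 0.198). DESeq2 called this difference for btr23 (-3.18, adjusted p = 0.0050) and for btr20 (2.04, adjusted p = 0.0416). Between embryos and gonads, 3 members passed, btr07, btr16 and btr21, where 0.486% of all genes did.

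The remaining members included several whose genotypes overlapped. btr04 was at 11.7, 18.9 and 14 CPM in mutant embryos, 82.5, 104 and 116 CPM in mutant ovary and 16.9, 28.6 and 34.6 CPM in mutant testis, within or close to the wild-type range in each. btr01 in gonads, btr06 in embryos and testis, and btr12 in embryos and testis also overlapped between genotypes. btr12 in ovary was at 32.2, 20.0 and 18.4 CPM in mutants and 48.9, 30.5 and 41.3 CPM in wild types, where 1 pair of libraries crossed. btr06 in mutant ovary was at 1.38, 0.58 and 3.03 CPM beside 0.48 to 0.72 CPM in wild types, with replicates 1 and 3 above the wild types and the highest value in replicate 3, the library with high vtg1. btr30 was at 0, 1.00 and 3.99 estimated counts in mutant ovary beside 20.9, 21.4 and 9.85 in wild types (adjusted p = 0.194). btr31 had 1 wild-type ovary library, replicate 1 at 0.91 CPM, far below the other 2 at 7.33 and 8.09 CPM, with the mutants at 1.52 to 2.64 CPM in between. In embryos btr31 was at 0.86, 1.04 and 0.91 CPM in wild types and 2.30, 2.07 and 1.73 CPM in mutants, without overlap (adjusted p = 0.175).

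The 18 non-mutant embryo libraries gave a wider reference for the embryo levels. btr20 was at 5.82 to 29.6 estimated counts in them (median 14.3) and at 1.29 to 3.51 in the 3 mutant libraries. btr22 was at 8.37 to 44.0 (median 21) and at 0 to 5.94. For both, all 3 mutants lay below all 18 non-mutants, as did 3.12% of all genes tested. btr31 was at 26.9 to 36.0 counts in the mutants and at 5.03 to 40.7 in the non-mutants, of which 1 library reached the mutant range. btr18 overlapped, at 3.54 to 5.88 CPM in mutants and 3.95 to 19.4 CPM in non-mutants, with 3 non-mutants at or below the highest mutant. In embryos injected with AP2 alone btr18 was at 6.06, 3.95 and 4.51 CPM. Its log2 change against uninjected embryos was -1.21 ± 0.36 with AP2 and -1.24 ± 0.36 in mutants. Neither passed with edgeR without the replicate block.

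Tested against the mean of the 6 non-mutant groups, 2 members were lower and 1 higher in mutant embryos, where 11.0% of all genes passed, 4.97% higher and 6.02% lower. btr20 was lower, with a log2 difference of -2.58 ± 0.56 (edgeR adjusted p = 0.0058) and btr22 by -2.38 ± 0.58 (adjusted p = 0.0120), and btr31 was higher by 1.08 ± 0.32 (adjusted p = 0.0324). With replicate number as a block 6 members passed, the others being btr18, lower, and btr12 and btr21, higher. Of all genes, 2613 were higher and 2446 lower of 22305 with the block. btr20 held on leaving out any 1 of the 21 libraries. btr22 lost its call without mutant replicate 2 (0.0645), and btr31 without any 1 of the 3 mutant libraries (0.0894 to 0.131). This comparison uses the same mutant and uninjected libraries as the one above and is no independent evidence.

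**Figure D4:**
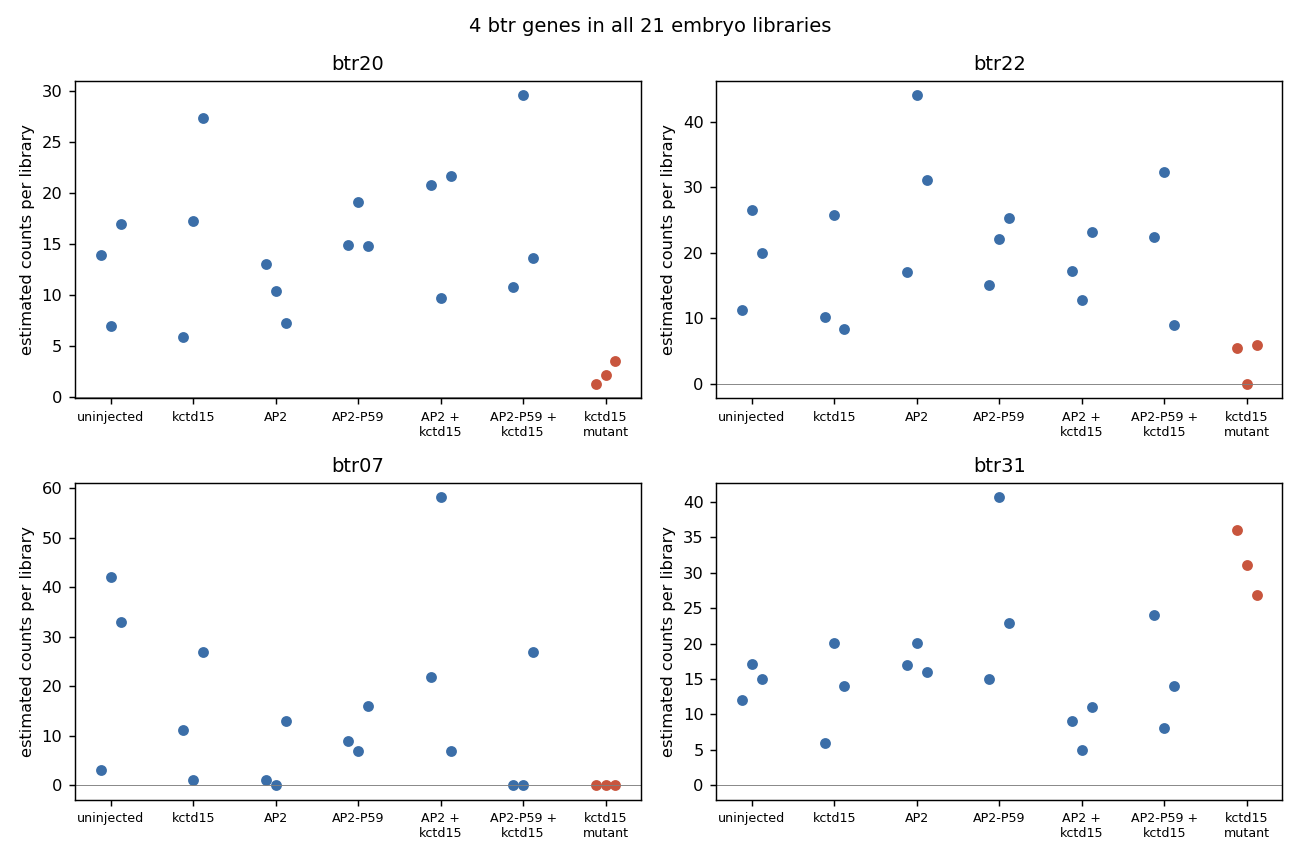
Estimated counts per library of btr20, btr22, btr07 and btr31 in the 7 embryo groups; each point is a library, blue for the 6 non-mutant groups and red for kctd15 mutants. All 3 mutant points of btr20 and btr22 lie below the 18 others, whereas btr07 is at 0 in some non-mutant libraries too.

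The non-mutant embryos differed widely among themselves in some members. btr07 ran from 0 to 58.2 estimated counts in them, with 3 of 18 libraries at 0, so its absence from the mutants was not unique to that genotype. btr32 was at 0 in 4 of the 18. btr21 ran from 1.05 to 23.7 estimated counts in them, the lower end being within counting error of 0. Among members with more counts, btr01 and btr02 were even, at 145 to 218 and 56.9 to 101.96 estimated counts. Others with many counts were less so, with btr18 at 61.6 to 313 and btr04 at 167 to 477.

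With edgeR and no replicate block, no member passed in an injection comparison, while btr23 passed in 1 of them under 2 alternatives. The 5 comparisons were kctd15, AP2 and AP2-P59 each against uninjected embryos, and kctd15 added to AP2 or to AP2-P59. Of the 80 member tests none passed with edgeR without the block, the smallest adjusted p being 0.0794, and 5 had an unadjusted p under 0.05. Of all 22305 genes, 763, 745, 1199, 1156 and 906 had an unadjusted p under 0.05 in the 5 comparisons, in the order named. Over all genes 0.197% passed for kctd15 added to AP2, and 0 genes in the other 4. The smallest value was that of btr23 in this co-injection, whose same-numbered libraries count as paired. There it passed with DESeq2 (log2 change -1.59, adjusted p = 0.0045) and with edgeR and the replicate block (-1.60, adjusted p = 0.0086). Of all genes, 19 were higher and 124 lower of 22305 with the block. Comparisons against the uninjected embryos share those 3 libraries.

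Other TRIM, immune and blood genes were counted from fixed lists for comparison. Of the finTRIM genes, 44 were tested in embryos and 53 in gonads, and 0 passed in any mutant comparison with edgeR, with 8 at an unadjusted p under 0.05 in each and a median log2 change of 0.06, 0.60 and 0.66 in embryos, ovary and testis. Of all genes, 4425 of 22305 in embryos, 3827 of 25870 in ovary and 1813 of 25870 in testis had an unadjusted p under 0.05. The all-gene medians were -0.01, 0.05 and 0.07, and these values serve for the lists below too. DESeq2 was not counted for these lists. Of 35 numbered TRIM genes tested, 1 passed: trim37, an E3 ligase known from human cells for its part in centrosome control, was at 48.5 to 67.8 CPM in mutant and 122.8 to 127.5 CPM in wild-type ovary. Of the erythroid genes, 14 were tested in embryos and 13 in gonads, and none passed with edgeR, with 4, 0 and 1 at an unadjusted p under 0.05 in embryos, ovary and testis.

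Immune lists held 1 call each in embryos. gbp1, an interferon-induced GTPase, was lower in mutants (log2 change -0.92 ± 0.22, edgeR adjusted p = 0.0262). Its list, the interferon response genes, summed to 89.7 to 99.7 CPM in mutant and 116.5 to 137.9 CPM in wild-type embryos. Of the 24 genes tested in that list, 18 had a log2 change below 0 and 6 above, with a median of -0.22 and 5 at an unadjusted p under 0.05. In the antigen presentation list, ciita, the regulator of MHC class II genes, was higher (1.87 ± 0.50, adjusted p = 0.0402), while 10 of the 13 genes tested had a log2 change below 0, with a median of -0.59 and 8 at an unadjusted p under 0.05. From the leukocyte list il2rga, a subunit of interleukin receptors, was higher from near 0 (0.80 to 0.96 CPM beside 0 to 0.12 CPM, adjusted p = 0.0341). In gonads the single immune call was irf7, a transcription factor of the interferon response, at 13.9, 22.4 and 22.6 CPM in mutant and 2.48, 2.2 and 1.79 CPM in wild-type ovary (log2 change 3.19 ± 0.63, adjusted p = 0.0492).

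In mutant testis the interferon response genes differed from library to library as some btr members did. The 33 listed genes summed to 575, 1951 and 1238 CPM in mutant replicates 1, 2 and 3 and to 562, 696 and 729 CPM in wild types, and 0 of 33 passed with edgeR (12 at an unadjusted p under 0.05, median log2 change 1.16). In the same order, btr29 was at 5.83, 21.7 and 15.5 CPM, btr09 at 11.8, 31.7 and 23.0 CPM and btr31 at 2.28, 9.66 and 7.54 CPM. Replicate 1 lay under 50% of both other mutant libraries for btr02, btr20, btr26, btr29 and btr31, 5 of 18 members, for 21 of the 33 interferon response genes, for 20 of the 53 finTRIM genes, and for 8.82% of all 25870 genes tested in gonads. btr07 and btr12 ran the other way, at 9.31, 3.96 and 6.12 CPM and at 6.75, 2.39 and 3.2 CPM. Leukocyte markers had the same order as the interferon list over a narrower range, at 195, 244 and 218 CPM in mutants, all below the 286 to 618 CPM of the wild types. The part of the interferon response or of leukocytes in the btr levels was not tested.

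In ovary the interferon list summed to 395, 405 and 476 CPM in mutants and 292 to 333 CPM in wild types, and btr02 was high in all 3 mutant libraries. btr29 in ovary was at 1.12, 0.52 and 1.51 CPM in mutants and 0.77 to 0.86 CPM in wild types, so the groups overlapped.

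**Figure D5:**
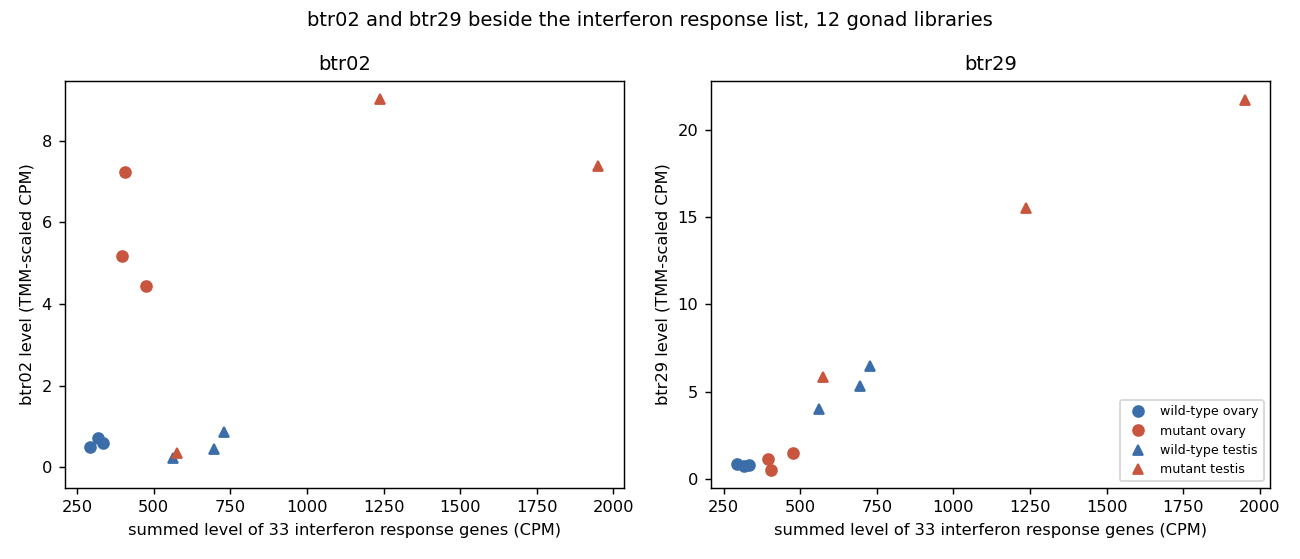
Level of btr02 (left) and btr29 (right) in TMM-scaled CPM against the summed CPM of 33 interferon response genes in the 12 gonad libraries; circles are ovary, triangles testis, blue wild type and red kctd15 mutant. Mutant testis replicates 2 and 3 are highest on both axes for btr29, whereas btr02 is also high in mutant ovary, where the list sums to 395 to 476 CPM.

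Close relatives can share reads, and the deposited estimates carry a sign of it. The quantification divides a read that fits several transcripts, so fractional estimates mark sharing. Of the 20 members, 9 had a transcript in the deposited transcript table, and for 8 of these its counts were within 2% of the gene value. The exception was btr09, whose transcript held 1.60% of the gene's counts. Estimates for btr01, btr02 and btr12 were whole, within 0.01, in all 33 libraries. Those for btr06 and btr26 were whole in 0 of 33 and for btr23 in 1 of 33, so their values depend on how shared reads were divided. For btr29 they were whole in 11 of the 27 libraries above 0 and for btr30 in 6 of 31, so these values depend on it too. The transcripts of btr07, btr20 and btr22 were not identified, so this count could not be made for them. Their gene estimates in mutant embryos were 1.29, 2.18 and 3.51 for btr20 and 5.41, 0 and 5.94 for btr22, mostly not whole. In wild-type embryos btr07 was near whole, at 2.99, 42.05 and 32.99. Gene estimates differ slightly from transcript counts, so they are a rougher sign of sharing.

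The genes that flank the members were examined as well. In the RefSeq annotation of the GRCz12tu assembly, another build than the GRCz10 named in the submitters' processing notes, btr22 and btr18 are neighbours, btr23 to btr26 form a run of 4, and btr04, btr05, btr06 and btr07 form another. btr20, btr21 and btr32 were not found in it by symbol. Within 10 genes on either side of the btr22 and btr18 pair, 14 genes were tested in gonads and 0 passed in ovary or testis with edgeR. In embryos 12 were tested and 1, oscp1a, was lower in mutants. Around the run of btr23 to btr26, 15 flanking genes were tested in gonads and 0 passed. In embryos 1 of 13 was lower, again oscp1a, so this run and the btr22 and btr18 pair lie near each other in this order. Around the run of btr04 to btr07, 15 flanking genes were tested in gonads and 0 passed, and in embryos 1 of 16, htatip2, was higher. Over all genes 0.553% passed in ovary, 0.0696% in testis and 4.09% in embryos, so counts this small do not set the flanks apart from other genes.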

How the data were processed

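Per the labels' protocols, TRIzol RNA was made into stranded polyA libraries. Per the submitters' processing notes, the tools were Trimmomatic 0.36, kallisto 0.43.0 and edgeR, and the build GRCz10. The deposited gene and transcript tables hold the authors' estimated counts (expected counts) for 30490 genes and 54435 transcripts. The deposited normalized table, a signal in CPM made by the authors, was not used. Estimated counts divide reads among similar transcripts, which can move reads between btr genes.

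Gene estimates were rounded and tested in R 4.3.3 with edgeR 4.0.16, using TMM scaling, filterByExpr (minimum count 10, minimum total 15), robust quasi-likelihood tests, and Benjamini-Hochberg adjustment at 0.05, two-sided. Embryos (21 libraries, 22305 genes), gonads (12 libraries, 25870 genes) and wild-type and mutant samples together (18 libraries, 26517 genes) had a fit each; comparisons of embryo with gonad use the last. The scripts were tested on simulated data. Alternatives were RLE size factors, no filter, a replicate block, DESeq2 1.42.0, only the groups compared, and leaving out each library. A floor of 3 counts over a group stands for 0. The replicates' sources are not described beyond biological replicate.

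Same-numbered libraries of mutant and wild-type embryos correlated in their deviations at 0.112 or more, over the minimum of 0.1. By this rule they count as paired, as do those of the kctd15, AP2 and co-injection comparisons. Gonads and AP2-P59 against uninjected embryos do not. The main fits held no replicate block, so values given without mention of the block ignore this pairing. The block was run as an alternative. Members, lists and tests were chosen with earlier results of these data known. Genes given values per library are those that passed in a mutant comparison or in the difference between embryos and gonads, and, as a rule of choice that compares no genes, the 3 with the most CPM in each wild-type tissue; others are named because of their values. No sequences are printed.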

Additional observations from a re-analysis of the deposited data

Results flagged for a closer look

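For 3 genes the mutant effect in embryos differed from the mean effect in ovary and testis by a test of the difference itself, fitted over 18 libraries with edgeR.

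For btr07 the difference was -10.94 ± 1.36 on the log2 scale (adjusted p = 0.0030). The size of this value depends on the small constant added where counts are 0, since all 3 mutant embryo libraries had none, and is not a measured fold change. Gonad libraries went the other way, with 6 of 6 mutants above the wild types of the same tissue. The call held without any 1 of the 18 libraries (0.00027 to 0.0157).

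For btr16 the difference was -3.73 ± 0.80 (adjusted p = 0.0483). It rests on 11 counts in wild-type and 1 in mutant embryos, and on mutant testis at 3.14, 5.98 and 5.42 CPM beside 2.34, 2.1 and 2.01 CPM. The call was lost on leaving out any 1 of 16 of the 18 libraries (range over all 18 0.0310 to 0.197), and with RLE factors, without a filter, with the block and with DESeq2.

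For btr21 the difference was 3.73 ± 0.74 (adjusted p = 0.0386), and it was lost on leaving out any 1 of 11 of the 18 libraries (range 0.0183 to 0.130). It rests on 2 counts in mutant ovary and on mutant embryos of which 1 lay below a wild-type embryo.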

How the results depend on the processing

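Log2 changes of some members in some comparisons were followed through the alternatives, and none of these reversed in sign. Members such as btr01, btr04 and btr06, with small changes in several comparisons, were not followed. Of the values followed, 416 stayed on their side of the threshold, 69 lost their call and 31 gained one. Without a low-count filter 0 members passed in mutant embryos. DESeq2 called 4 members in mutant embryos, where 659 genes were higher and 983 lower of 23304. Against the mean of the non-mutant groups it called 6, beside 1394 and 1763 of 24450 genes. It called 4 in ovary, beside 656 and 414 of 23845 genes, and 7 in testis, beside 137 and 165 of 26742. For ovary against testis it called 2 (240 and 159 of 25581 genes) and for embryo against gonads 5 (221 and 378 of 25807). Over the injections it called 1, in kctd15 added to AP2 (25 and 126 of 21585 genes). With the replicate block the counts were 3 in embryos, 6 against the non-mutant groups, 0 in testis and 1 over the injections. Of all genes, 3 were higher and 7 lower of 25870 in testis with the block, and 19 and 124 of 22305 for kctd15 added to AP2. Same-numbered mutant and wild-type testis libraries correlated in their deviations at 0.431, 0.263 and 0.085, the last under the minimum of 0.1. The block moved no other count by over 1.5 times. With only the groups compared, which also filters genes anew, 0 passed in ovary and 0 in testis. Leaving out 1 library at a time gave 0 to 1 members in embryos, 1 to 4 against the non-mutant groups, 0 to 3 in ovary, 0 to 1 in testis, 1 to 4 for embryo against gonads, 0 for ovary against testis, 0 over the injections, 13 to 15 for ovary against embryo, 13 to 15 for testis against embryo and 6 to 10 for testis against ovary. The cause of these changes was not tested. On total-count CPM, 46 of 120 group levels moved by more than the SD, the testis scale being the farthest from the others (factors of 1.58 to 1.70). Depth limits btr20 and btr22 in embryos, btr16, btr21 and btr32, which rest on few counts.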
